A study of Arabidopsis thaliana with 4 samples.

Results

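The 9 Arabidopsis genes described here control how much abscisic acid a cell makes and destroys. They are 5 NCED genes of synthesis (NCED2, AT4G18350; NCED3, AT3G14440; NCED5, AT1G30100; NCED6, AT3G24220; NCED9, AT1G78390) and 4 CYP707A genes of catabolism (CYP707A1, AT4G19230; CYP707A2, AT2G29090; CYP707A3, AT5G45340; CYP707A4, AT3G19270), out of 27444 protein-coding nuclear genes. They were chosen by gene identity, and every peak summit that fell in a gene or up to 1000 bp outside either of its ends was counted for it. A gene with such a summit is called met.

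The study asked where LEC1, a seed-expressed subunit of the NF-Y transcription factor and a master regulator of embryo maturation, occupies the genome. The ChIP group had 2 libraries, precipitated with an anti-FLAG antibody from developing seeds of lec1-4 mutant plants that carried LEC1-FLAG under the LEC1 promoter. The input group had 2 libraries of total chromatin from the same genotype and tissue. Growth was at 22°C in long days (light for 16 h, dark for 8 h), and the labels give a mature seed stage while the series title names embryo expansion. Each ChIP library had its own peak list, called by the authors over the input library of the same number. No precipitate from untagged plants was among the samples, so the background of the antibody at these genes was not measured. The material was whole seeds, in which a site used in few cells and a site used weakly in many cells cannot be told apart.

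Abscisic acid builds up during seed maturation, holds back germination and promotes desiccation tolerance. NCED enzymes cleave cis-epoxycarotenoids in the plastid, the step generally regarded as limiting for synthesis, and the members of the family differ in where they are expressed. NCED6 and NCED9 are known for synthesis in seeds, NCED5 adds to it, and NCED3 is the main drought-induced member. CYP707A enzymes are cytochrome P450 hydroxylases that start the breakdown of abscisic acid to phaseic acid. CYP707A1 is known to act in mid-maturation embryos, and CYP707A2 in late maturation and imbibed seeds. LEC1 is a chromatin-bound regulator, so a peak shows occupancy near a gene and says nothing by itself of whether its transcript goes up or down.

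The ChIP libraries had nearly the same number of tags, 4454133 in replicate 1 and 4493099 in replicate 2, over 7578894 and 9646586 input tags. The lists differed in length, with 15542 nuclear summits in replicate 1 and 3777 in replicate 2. Outside the nuclear chromosomes, replicate 1 had 0 summits and replicate 2 had 292. The tag counts are for whole libraries, so nuclear depth was not compared, and why the lists differed was not tested. Values of the replicates come from separate calls, and members are therefore placed within each list. Each summit has a pileup and a fold, both the authors' own. The pileup is the number of extended ChIP fragments over it. The fold is that pileup over the peak caller's local background, with 1 added to each. Intervals are 95% exact Poisson intervals of the pileup, carried over to the fold with the background taken as exact, and they cover counting error only.

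LEC1-FLAG was found at genes of both arms of abscisic acid turnover. In both replicates, 5 of the 9 genes were met, namely the synthesis genes NCED3 and NCED9 and the catabolic genes CYP707A1, CYP707A2 and CYP707A4. By family these were 2 of 5 NCED genes and 3 of 4 CYP707A genes. Of all protein-coding genes, 13.3% were met in both replicates, and of the 13765 genes whose length lies within the range of the 9 (1885 to 4898 bp), 15.0%. In replicate 1 alone, 8 of the 9 genes were met (4 of 5 NCED and 4 of 4 CYP707A), against 48.2% of all genes. In replicate 2 alone the same 5 genes were met as in both, against 13.5% of all genes. NCED2, NCED6 and CYP707A3 were met in replicate 1 only, and NCED5 in neither. With the further demand that summits of both replicates lie within 150 bp of each other, all 5 genes remained, against 12.7% of all genes. These are counts over few genes chosen for their pathway with earlier results known, and no test was made over them.

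**Figure D1:**
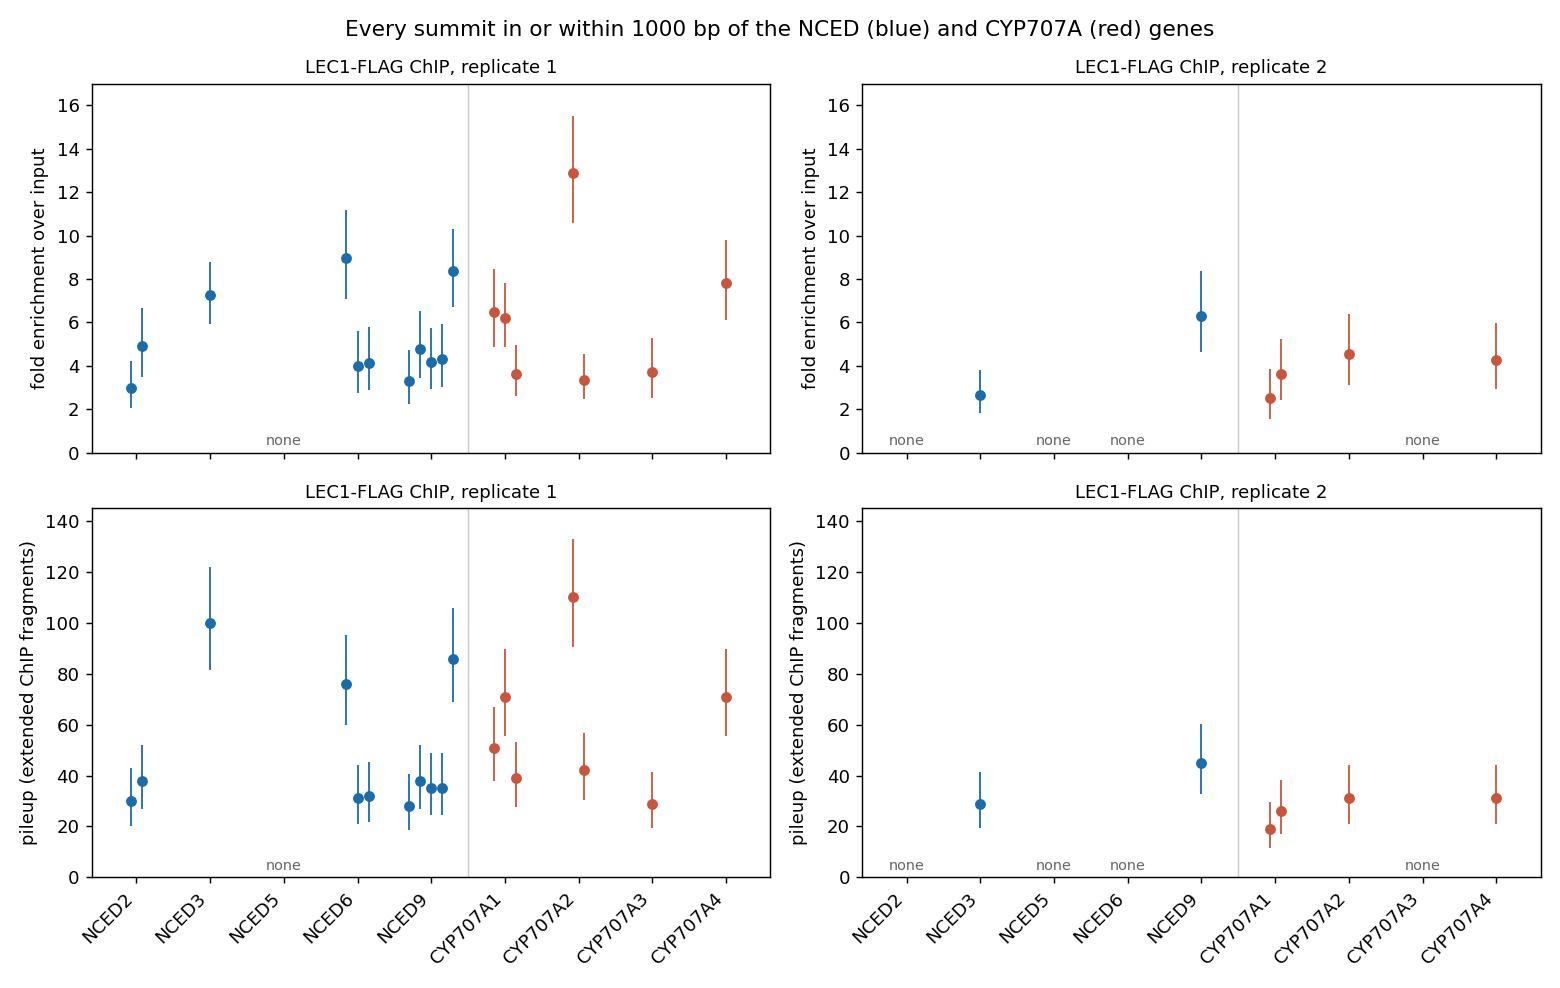
Fold enrichment over input (upper panels) and pileup in extended ChIP fragments (lower panels) of every summit in or up to 1000 bp outside the 9 genes, in replicate 1 (left) and replicate 2 (right). Points are single summits, in order of position within a gene, bars are 95% Poisson intervals, and "none" marks a gene with no listed summit. CYP707A2 has the highest point in replicate 1, at 12.9-fold, and NCED9 the highest in replicate 2, at 6.28-fold.

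Among the synthesis genes, NCED9 had the strongest site in replicate 2. In replicate 1 its strongest summit, at position 29492809 of chromosome 1, lay 66 bp inside the high-coordinate end of the gene, with a pileup of 86 fragments and a fold of 8.36 (6.71 to 10.3). In replicate 2 the summit lay 74 bp away, at position 29492883 and 8 bp outside the same end, with 45 fragments and a fold of 6.28 (4.62 to 8.36). The intervals of the 2 replicates overlapped. The replicate 2 fold was 0.751 of the replicate 1 fold, above the middle 50% (0.326 to 0.546) of all 3299 replicate 2 summits that had a replicate 1 summit within 150 bp. By its strongest summit, NCED9 stood above 95.7% of the 3716 genes met in replicate 2 and above 83.8% of the 13227 genes met in replicate 1.

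The body of NCED9 carried a second, wider signal in replicate 1. A peak of 1465 bp, from 29490966 to 29492430, held 4 summits with folds of 3.29, 4.79, 4.17 and 4.30 in order of position. It was longer than 99.7% of the 13894 replicate 1 peaks, whose median length was 342 bp, and it was 1 of 15 peaks with at least 4 summits. Replicate 2 listed none of these 4 summits, and its peak at NCED9, of 457 bp, covered the gene end alone.

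NCED6 resembled NCED9 in its wide gene-body signal but lacked a replicate 2 site. Its replicate 1 peak ran from 8761967 to 8763098 of chromosome 3 (1132 bp, longer than 99.0% of peaks), with 3 summits inside the gene. The strongest, at position 8762328, had 76 fragments and a fold of 8.97 (7.09 to 11.2), the highest of the NCED family in that replicate, and the other two had 3.97 and 4.15. The nearest replicate 2 summit was 4198 bp away from the strongest one. Of all 821 replicate 1 summits with folds between 8 and 10, 71.3% had a replicate 2 summit within 150 bp, and the NCED6 summit did not.

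NCED3 was met in both replicates at 1 place inside the gene. The replicate 1 summit at position 4833685 of chromosome 3 had 100 fragments, the highest NCED pileup, and a fold of 7.25 (5.91 to 8.80). In replicate 2 the summit 32 bp away had 29 fragments and a fold of 2.67 (1.82 to 3.79), above only 14.6% of the genes met in that list. Local background was high there in both lists, 13.9 and 11.2 fragments with the 1 that the peak caller adds, against medians of 8.92 and 7.52 over all summits. A weaker site 1833 bp outside the low-coordinate end in replicate 1 (3.37-fold) and 1777 bp outside it in replicate 2 (2.91-fold) lay beyond the 1000 bp limit. In replicate 2, this outer site had the higher fold of the 2 NCED3 sites, with overlapping intervals (1.83 to 4.43 for the outer one).

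NCED2 had 2 replicate 1 summits in separate peaks inside the gene, with 30 and 38 fragments and folds of 2.98 (2.04 to 4.21) and 4.90 (3.50 to 6.68). Neither had a counterpart in replicate 2, where the nearest summit was 18473 bp away from the stronger one. NCED5 had no summit in its window in either list. The closest replicate 1 summit to NCED5 was a 3.48-fold one 2258 bp outside the high-coordinate end.

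CYP707A2 had the strongest site of the 9 genes in replicate 1. The summit at position 12494328 of chromosome 2, 498 bp outside the low-coordinate end, had 110 fragments and a fold of 12.9 (10.6 to 15.5), above 95.0% of the genes met in that list. In replicate 2 the summit 41 bp away had 31 fragments and a fold of 4.54 (3.13 to 6.38), above 80.9% of the genes met. The replicate 2 fold was 0.352 of the replicate 1 fold, near the median of 0.415 over all summits paired in this way. A neighbour, ftsh3 (AT2G29080), a gene of the FtsH protease family, lay 999 bp from the replicate 1 summit and 1040 bp from the replicate 2 summit, so the site counted for it in replicate 1 only. A weaker summit inside CYP707A2, at 3.37-fold with 42 fragments, was listed in replicate 1 alone.

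CYP707A4 also had a site just outside the gene in both replicates. The replicate 1 summit at position 6673561 of chromosome 3 lay 128 bp outside the low-coordinate end with 71 fragments and a fold of 7.80 (6.12 to 9.81). Its replicate 2 counterpart, 84 bp outside, had 31 fragments and a fold of 4.25 (2.93 to 5.98). The gene was above 80.8% of the genes met in replicate 1 and above 75.4% in replicate 2. Another shared site lay 2267 bp and 2363 bp outside the opposite end, with folds of 8.37 and 3.12. That site was inside the neighbouring gene AT3G19274 and was not counted for CYP707A4.

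CYP707A1 was the one member with 2 shared sites within its window. At its low-coordinate end, replicate 1 had a summit 25 bp outside the gene with 51 fragments and a fold of 6.48 (4.86 to 8.48), and replicate 2 had one 112 bp outside with 19 fragments and a fold of 2.50 (1.56 to 3.84). Within the gene, 1336 bp from that end, replicate 1 had 71 fragments and a fold of 6.22 (4.88 to 7.82), and replicate 2 had 26 fragments and a fold of 3.62 (2.41 to 5.24) at a distance of 79 bp. The intervals of the 2 sites overlapped within each replicate, so neither stood out as the stronger. A further summit inside the gene, at 3.64-fold, was in replicate 1 only.

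CYP707A3 had the weakest signal of the 8 genes met in replicate 1. Its single summit, 505 bp from the low-coordinate end and inside the gene, had 29 fragments and a fold of 3.72 (2.53 to 5.29), above 39.8% of the genes met in that list. Replicate 2 had none in the window. A site 1841 bp outside the high-coordinate end in replicate 1 (3.73-fold) and 1762 bp outside it in replicate 2 (2.51-fold) was shared. With a window of 2000 bp, CYP707A3 became the sixth member met in both replicates, while 18.1% of all genes were met in this way.

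**Figure D2:**
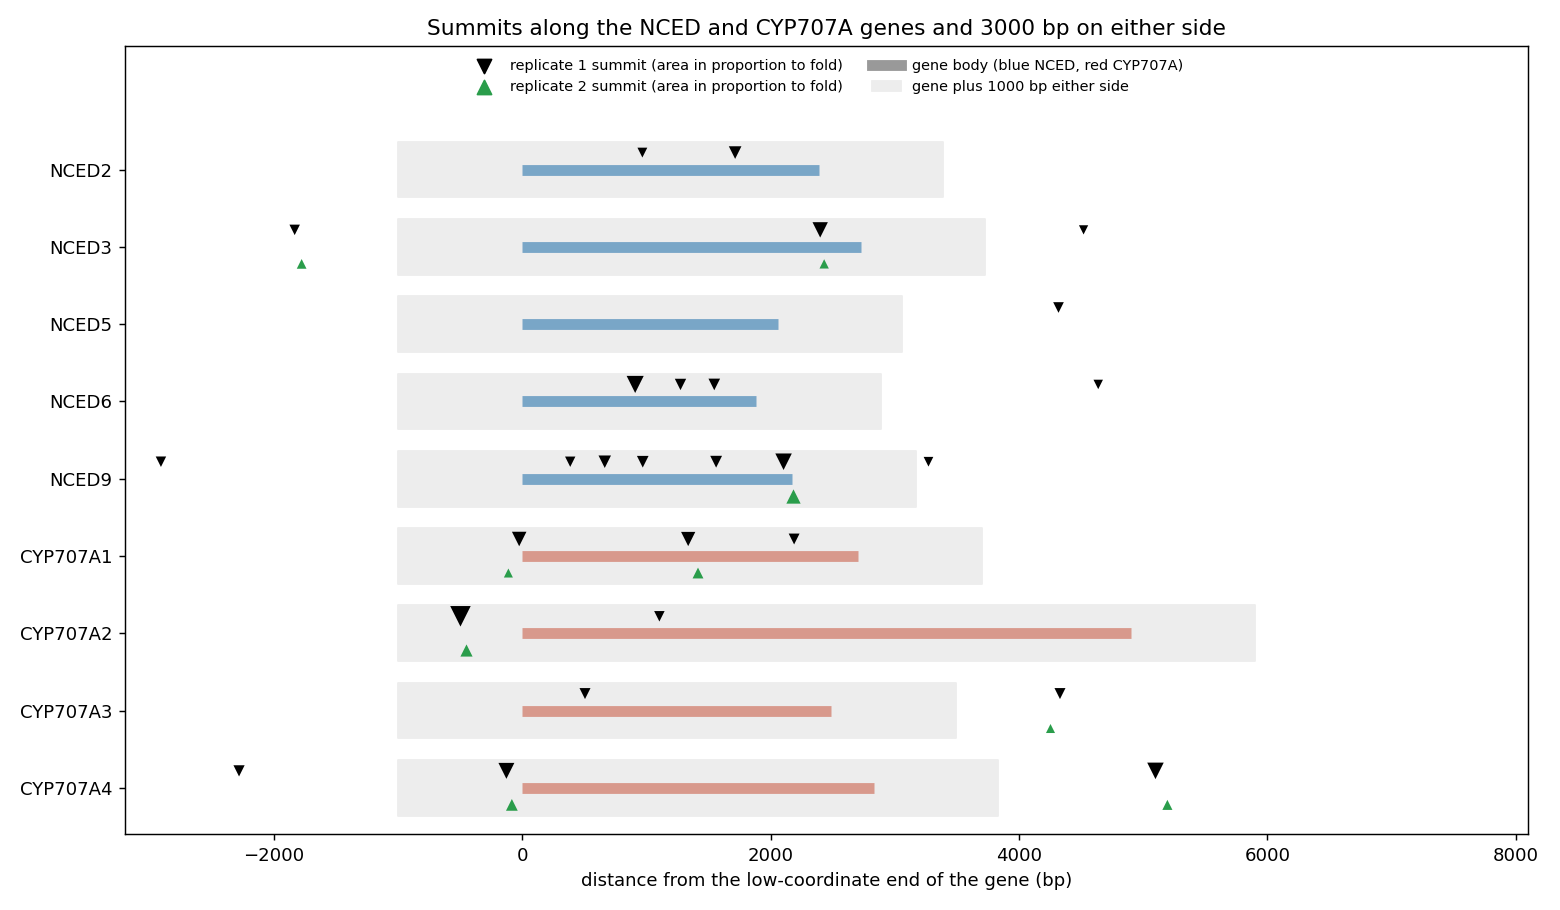
Position of each summit relative to the low-coordinate end of its gene (horizontal axis, bp), with NCED genes above CYP707A genes. Bars are gene bodies, grey fields the gene plus 1000 bp on either side, and triangles are summits of replicate 1 (pointing down, black) and replicate 2 (pointing up, green), with area in proportion to fold. All 11 NCED summits of replicate 1 in the grey fields lie inside the genes, while CYP707A1, CYP707A2 and CYP707A4 each have a replicate 1 summit 25 to 498 bp outside. Of the 11, 4 share 1 NCED9 peak and 3 share 1 NCED6 peak.

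The sites of the families differed in place mainly in replicate 1, which is a description of few genes with no test. In replicate 1, all 11 NCED summits were inside the genes, against 4 of 7 CYP707A summits. The 11 are not separate sites, since 4 shared 1 NCED9 peak and 3 shared 1 NCED6 peak. Part of the contrast also rests on few bp, with 1 NCED9 summit 66 bp inside an end and 1 CYP707A1 summit 25 bp outside. The 3 CYP707A summits outside belonged to CYP707A1, CYP707A2 and CYP707A4. In replicate 2, 1 of 2 NCED summits was inside, the other being the NCED9 summit 8 bp beyond the gene end, against 1 of 4 CYP707A summits. Of all nuclear summits, 52.7% in replicate 1 and 35.5% in replicate 2 lay inside a protein-coding gene. A further 34.9% and 47.2% lay up to 1000 bp outside and in no gene. The rest lay farther off and have no counterpart among the counted member summits. The CYP707A counts, of 7 and 4 summits, were too few to set apart from these shares. Counting gene ends alone, from 1000 bp outside to 200 bp inside, left NCED9, CYP707A1, CYP707A2 and CYP707A4 as met in both replicates and dropped NCED3, against 11.7% of all genes. No summit of the 9 genes lay between 498 and 1000 bp outside an end. The first one beyond the limit was a replicate 1 summit of 2.88-fold at 1101 bp from NCED9. The gene table gives no strand, exons or untranslated regions, so whether a site lay at the promoter or at the far end was not determined.

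In strength the families overlapped in each replicate. In replicate 1 the strongest summit per gene ran from 4.90 to 8.97 in the 4 NCED genes met and from 3.72 to 12.9 in the 4 CYP707A genes. With the unmet NCED5 counted as lowest, the median was 7.25 for NCED and 7.14 for CYP707A. The pileups of these summits were 38 to 100 fragments for NCED and 29 to 110 for CYP707A, with medians of 76 and 61.0. The order of these medians depended on how a gene's summits were combined. With the mean fold and the summed pileup over all summits of a gene, they were 4.98-fold for NCED and 6.62-fold for CYP707A, and 100 fragments for NCED and 112 for CYP707A. In replicate 2 the folds were 2.67 and 6.28 for the 2 NCED genes met, and 3.62, 4.25 and 4.54 for the 3 CYP707A genes. The highest and the lowest fold of a gene in replicate 2 were thus both of NCED genes, with the CYP707A genes in between. Their pileups were 29 and 45 fragments for NCED and 26 to 31 for CYP707A. The NCED median in replicate 2 fell on a gene with no summit and has no value, and the CYP707A median, with CYP707A3 counted as lowest, was 3.94. Local background under the summits, with the added 1, was 7.96 to 13.9 fragments for NCED and 8.02 to 12.8 for CYP707A in replicate 1. In replicate 2 it was 11.2 and 7.32 under the 2 NCED summits, at NCED3 and NCED9, and 7.06 to 7.99 for CYP707A.

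**Figure D3:**
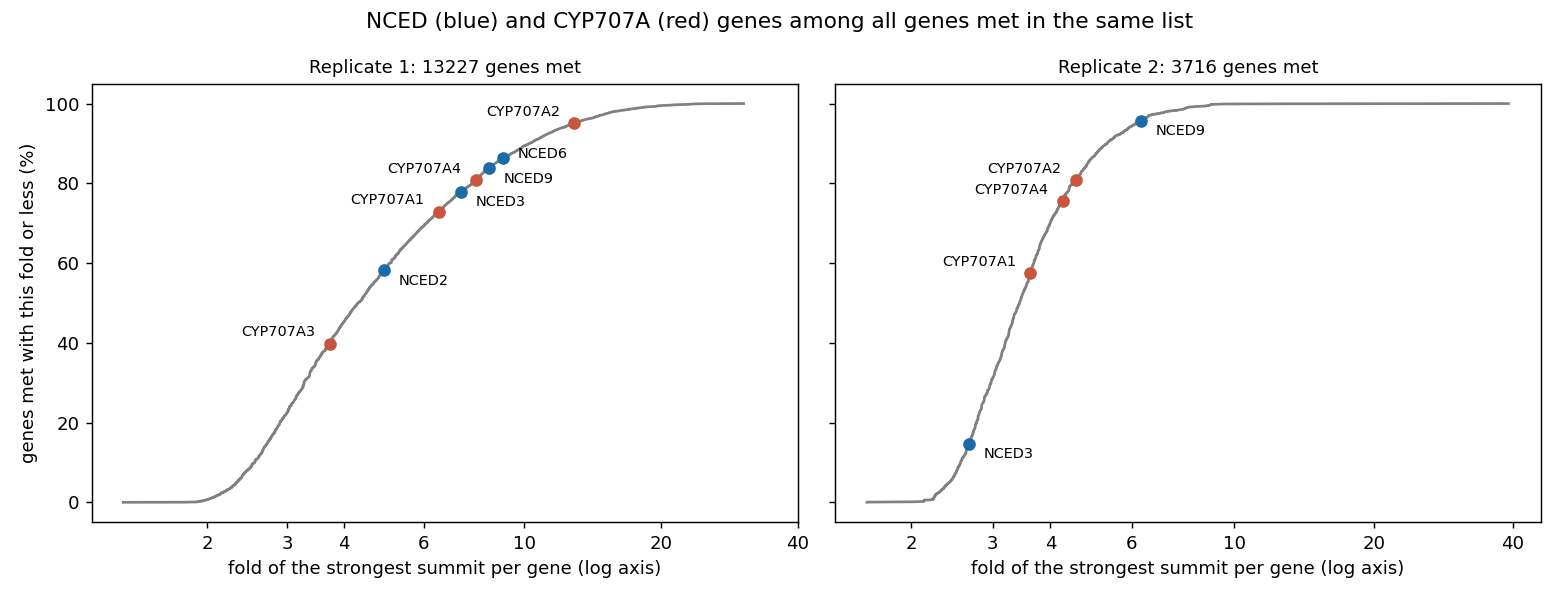
Share of met genes (vertical axis, %) whose strongest summit has the fold on the horizontal log axis or less, for the 13227 genes of replicate 1 (left) and the 3716 genes of replicate 2 (right). Points are NCED genes in blue and CYP707A genes in red. In replicate 1 the members spread from CYP707A3, above 39.8% of the genes, to CYP707A2, above 95.0%, and in replicate 2 from NCED3, above 14.6%, to NCED9, above 95.7%.

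The order of the members was only partly kept between the replicates. Replicate 1 ranked them CYP707A2, NCED6, NCED9, CYP707A4, NCED3, CYP707A1, NCED2 and CYP707A3 by fold. Replicate 2 ranked them NCED9, CYP707A2, CYP707A4, CYP707A1 and NCED3. The interval of CYP707A2 in replicate 1 overlapped that of NCED6 and of none of the other 6 genes met there. Every pair of neighbours in the replicate 1 order had overlapping intervals. In replicate 2 the NCED9 interval lay above that of NCED3 and overlapped those of all 3 CYP707A genes.

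Member sites found again in replicate 2 were mostly the stronger ones of replicate 1. All 6 member summits of replicate 2 had a replicate 1 summit within 150 bp, against 87.3% of all 3777 replicate 2 summits. In the other direction 6 of the 18 member summits of replicate 1 were found again, 2 of 11 in NCED genes and 4 of 7 in CYP707A genes. The 6 had folds of 6.22 to 12.9. Of the 12 not found again, 11 had folds of 2.98 to 4.90 and the remaining one was the NCED6 summit at 8.97. The fold classes used here were set after the values were seen. Among all replicate 1 summits, 1.44% of those under 3-fold were found again, 5.10% at 3 to 4, 12.4% at 4 to 5 and 23.4% at 5 to 6. The share was 38.0% at 6 to 7, 48.7% at 7 to 8, 71.3% at 8 to 10, 91.8% at 10 to 14 and 98.6% at 14 or more. Of all replicate 1 summits inside a gene, 14.5% were found again (3 of 15 in the members), and of those up to 1000 bp outside and in no gene, 26.9% (3 of 3 in the members). The lists do not hold the signal at places that were not called, so a site absent from replicate 2 was below its threshold and not shown to be free of LEC1-FLAG.

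**Figure D4:**
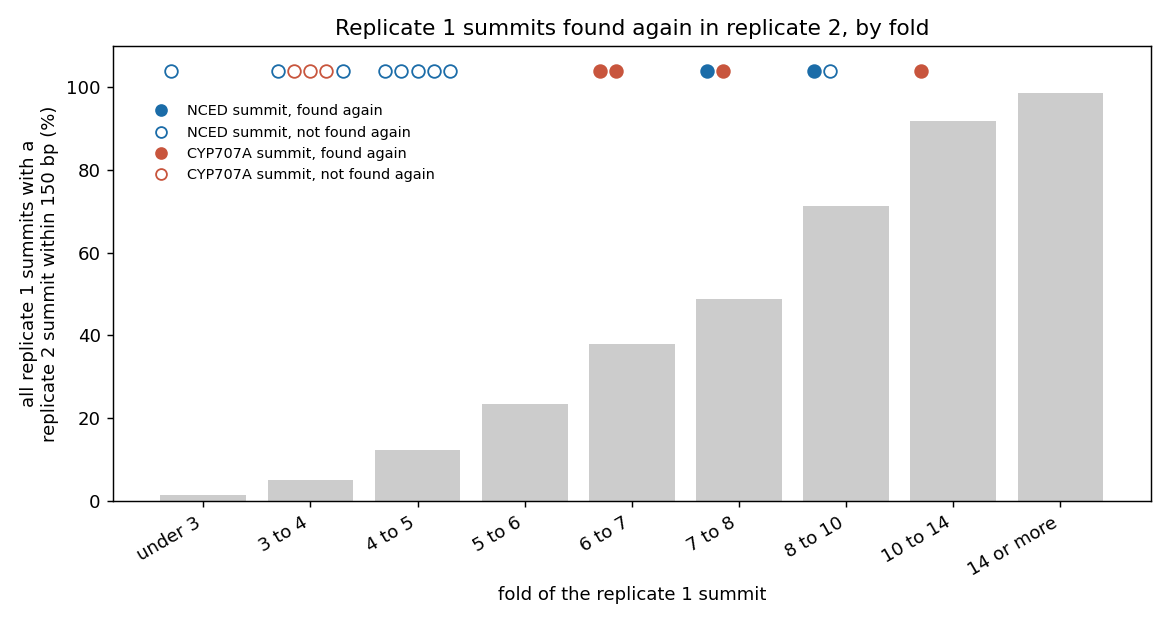
Share of all replicate 1 summits with a replicate 2 summit within 150 bp (grey bars, %), by the fold of the replicate 1 summit. Circles above the bars are the 18 member summits in their fold class, filled where found again and open where not, blue for NCED and red for CYP707A. The open circle at 8 to 10 is NCED6, and the other 11 open circles are under 5-fold.

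The same count was made for the rest of the pathway. The 20 other genes were of abscisic acid synthesis, conjugation, release and transport, phaseic acid reduction and carotenoid cleavage. Of these, 5 were met in both replicates (13.3% of all genes were), 13 in replicate 1 (48.2% of all genes) and 5 in replicate 2 (13.5% of all genes). None of the 6 other genes listed under synthesis was met in both, a count that the 13.3% over all genes does not set apart. Not all 6 act at a direct step towards abscisic acid. ABA1, the zeaxanthin epoxidase gene, had 4.37-fold and ABA2, the xanthoxin dehydrogenase gene, 3.43-fold in replicate 1 alone, and ABA3, ABA4, NPQ1 and AAO3 were not met in either list. Among 4 carotenoid cleavage dioxygenase genes related to NCED, CCD1, which cleaves many carotenoids, had 7.37-fold in replicate 1 and 3.26-fold in replicate 2. CCD8, of strigolactone synthesis, had 8.21 and 2.66. CCD4 and CCD7 had 3.03-fold and 2.98-fold in replicate 1 alone.

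The other 3 genes met in both replicates take part in conjugation and transport. UGT71B6 and UGT71C5, which encode glucosyltransferases of abscisic acid, had 11.0-fold and 10.2-fold in replicate 1 and 3.88-fold and 4.63-fold in replicate 2. ABCG25, an exporter of abscisic acid, had 11.4-fold in replicate 1 and 5.01-fold in replicate 2, and its replicate 2 fold was above those of all members but NCED9. The importer gene ABCG40 and the glucosidase genes BG1 and BG2, which release stored abscisic acid, were not met.

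The 3 CYP707A genes met in both replicates were set beside the other P450 genes that carry a CYP symbol. P450 genes under any other symbol were not included. Of 215 other genes named as cytochrome P450 in the gene table, 22 (10.2%) were met in both replicates and 83 (38.6%) in replicate 1. Some of the 22 shared the same replicate 2 summit with another of them, and each was counted. Of all protein-coding genes, 13.3% and 48.2% were met in both replicates and in replicate 1. Ranked by the smaller of their folds in the replicates, the first were CYP78A6 (14.2 and 6.27), CYP71A15 (6.91 and 5.31) and CYP86A4 (13.0 and 4.65). The smaller folds of CYP707A2, CYP707A4 and CYP707A1 were 4.54, 4.25 and 3.62. CYP707A2 thus came after these 3 and before CYP77A6 (4.52), and CYP707A4 came between CYP77A6 and CYP86A2 (3.94). CYP77A6 and CYP86A2 were named after their values were seen.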

How the data were processed

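Per the submitters' processing notes, BWA 0.7.12, MACS2 2.1.0.20150420 and TAIR10 were used. Per the file headers, peaks were called at a q threshold of 0.05 without a shift model, with extensions of 187 bp (replicate 1) and 149 bp (replicate 2), at most 1 tag per position, summit search and scaling to the smaller library. Fragments of 150 to 200 bp were preferred, per the labels' protocols. As deposited, pileup is a signal (fragments over the summit), fold is a ratio to local background, and the authors' −log10 p-value and −log10 q-value belong to each summit.

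Summits on the 5 nuclear chromosomes were assigned in Python 3.11.15 (pandas 2.3.3, numpy 2.4.6, scipy 1.17.1) to protein-coding genes of a RefSeq table (TAIR10.1), used for names, lengths and neighbourhood. All 9 members and all 20 other pathway genes matched by identifier. A gene end was within 200 bp for 42.6% of the summits of each replicate, and for at most 20.1% when shifted by 500 to 2000 bp. Background was (pileup + 1) / fold. Assignment was tested on simulated data. The members and lists were chosen with earlier results of these data known. The text names all members, all 20 other pathway genes, the 3 strongest P450 genes and neighbours sharing a summit. The planned motif and protein comparisons were not done here. No test was run, since the data are 2 lists and genes are not replicates.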

Additional observations from a re-analysis of the deposited data

How the results depend on the processing

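Over 12 other settings, a recomputed count was taken as kept within 1.5 times the value given, and a family median within its counting interval. By this rule, 134 of the 156 counts and family medians were kept and 22 moved. These totals are no measure of stability. Pooling all summits of a gene cannot change a count of genes met, yet those counts are among the 156. Medians left without a value, as for NCED in replicate 1 with gene ends only, are not among them. At −log10 q of at least 10, NCED9 alone remained of the members met in both replicates and in replicate 2 (1 of 9, 1 NCED and 0 CYP707A genes), with CYP707A2 missing the limit at 9.996 in replicate 2, and 2 other abscisic acid genes remained, while the share of all genes met in both was 2.95%. At −log10 q of at least 5, NCED9 was the 1 NCED gene left in both replicates and in replicate 2, the other abscisic acid genes were 3, and the share of all genes was 7.57%. With gene ends only, NCED genes met were 1 in both replicates, 1 in replicate 1 and 1 in replicate 2, members met in replicate 1 were 4, and other abscisic acid genes were 2. The share of all genes met in both was 11.7% with this setting. The share of all genes in each replicate alone was not counted with gene ends only or at the q limits. The counts per replicate in these settings therefore cannot be set apart from the change over all genes. The 2000 bp window gave 8 other abscisic acid genes, while the share of all genes met in both was 18.1%. With all summits of a gene pooled, replicate 1 medians were a mean fold of 4.98 and a summed pileup of 100 for NCED, and 6.62 and 112 for CYP707A, which turned the order of the families in both measures. Using 1 list at a time, the members met ranged from 5 to 8 (NCED 2 to 4, CYP707A 3 to 4) and the other abscisic acid genes from 5 to 13, the higher values without replicate 2. The share of all genes met went from 13.5% without replicate 1 to 48.2% without replicate 2. The 500 bp window, nearest-gene assignment, a shortened replicate 1 list and whole-peak overlap each kept the same 5 members. In that order, 10.4%, 9.39%, 10.8% and 14% of all genes were met in both replicates. No paired analysis was possible because each list is already 1 ChIP library over its own input and no test was run. Replicate 2, with the shorter list, limits which sites count as shared.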
